A study of Homo sapiens with 480 samples.

Results

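Cells taken 8 days after the reprogramming factors were switched on are described here one by one, as the middle group of a time course from skin fibroblasts towards induced pluripotent cells. All libraries of the day 8 table were considered. Each was rescaled to a total of 1000000 and was kept if at least 2000 genes stood at 1 or more and if ACTB or GAPDH, a pair of housekeeping genes, stood at 1 or more. The rule kept 92 of 96 day 8 libraries, which were counted as 91 cells because a pair of them was nearly identical, of 459 cells kept from 480 libraries in the 5 groups of the series. The 4 libraries left out had 309 to 1942 genes at 1 or more.

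The starting material was BJ, an established line of human foreskin fibroblasts. Expression of OSKM (OCT4, also named POU5F1, with SOX2, KLF4 and MYC) was induced from viral vectors, and single cells were captured on a microfluidic chip for polyadenylated RNA sequencing. The other groups were untreated BJ cells (92 kept), day 2 cells (96 kept) and day 16 cells sorted as TRA-1-60 positive (95 kept) or negative (85 kept), TRA-1-60 being a surface antigen of pluripotent cells. Day 8 cells were not sorted by TRA-1-60 as far as the labels say, every group is 1 culture as far as they say, and cells of 1 culture are not replicates, so every value below is a description of these cells and no test was made.

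Reprogramming starts with the loss of the fibroblast programme (collagens, fibronectin, mesenchymal transcription factors) and with a mesenchymal-to-epithelial transition, in which cells take up keratins, tight junction proteins and E-cadherin. Genes of pluripotent cells are known to come up in steps, with RNA-binding proteins, signalling ligands and transcripts driven by endogenous retroviruses often ahead of the core transcription factors. Bulk RNA averages over these steps. Values per cell can show whether the loss of one programme and the gain of another take place in the same cells.

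Values are FPKM (fragments per kilobase of transcript, per library size) as deposited, rescaled to the same total in each cell, so levels of different genes can be compared per length. A gene at 1 or more is called detected. An exact 0 can be a missed molecule or a failed estimate, and is written as listed at 0. The kept day 8 libraries had 2976 to 8985 detected genes with a median of 5915. Their deposited FPKM totals ran from 698873 to 1739165 with a median of 809963. Read depth per cell is unknown, since no counts were used here. OCT4 was listed at or near 0 in all groups and is not read.

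A pair of day 8 libraries was nearly identical: their log2(value + 1) values over all genes had r = 0.9986, with 5196 and 5053 detected genes, of which 5044 were shared. The next closest of 4186 day 8 pairs had r = 0.83, the median pair had 0.72, and the closest pair in any other group had 0.85. Without counts the sampling noise cannot be computed, and the pair was averaged and counted as 1 cell.

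In addition, 3 day 8 cells stood apart by their epithelial genes, and the main results are also given without them. The first of them held KRT8 at 1470, KRT7 at 1160, KRT19 at 1853 and CDH1 (E-cadherin) at 72.5, with the cornified-envelope gene SPRR1B at 936, with VIM (vimentin) at 19.2 and with L1TD1 listed at 0. The second held the highest KRT8 of all day 8 cells, 6773, with KRT18 at 7959, EPCAM at 80.9, the secretory-cell gene AGR2 at 703, SPP1 at 12639 and VIM listed at 0. The third had the most detected genes of all, 8985, with CDH1 at 62.6, EPCAM at 55.1, KRT6A at 877 and VIM at 215. These cells thus shared keratins and E-cadherin and differed in their stratified, secretory and mesenchymal genes. SOX2 stood between 43.2 and 52.8 in all 3. No doublet caller was run, and whether any of them holds more than 1 cell was not tested.

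The 4 genes that mark day 8 cells against the earlier groups were checked first. KRT8, the simple-epithelial keratin that pairs with KRT18, ran from 0.910 to 6773 with a median of 942, and was detected in 89 of 91 cells (97.8%) against 23.9% of BJ cells. SPP1, the secreted glycoprotein osteopontin, ran from 0 to 12975 with a median of 202.7, and was detected in 89 cells against 29.3% of BJ cells. ANXA3, a membrane-binding annexin, ran from 0 to 3049 with a median of 788, and was detected in 81 cells against 17.4% of BJ cells. L1TD1, which binds RNA and is typical of pluripotent cells, ran from 0 to 390 with a median of 23.3, and was detected in 55 cells (60.4%) against 9.78% of BJ cells. By detection at 1 or more, the first 3 were thus near-general in the day 8 cells, while L1TD1 divided them. By level these 3 genes were less even. SPP1 in particular stood only a little above 1 in many cells, with a median of 202.7 over all. These markers came from earlier results of these data, so their presence is a check of the label and no finding.

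**Figure D1:**
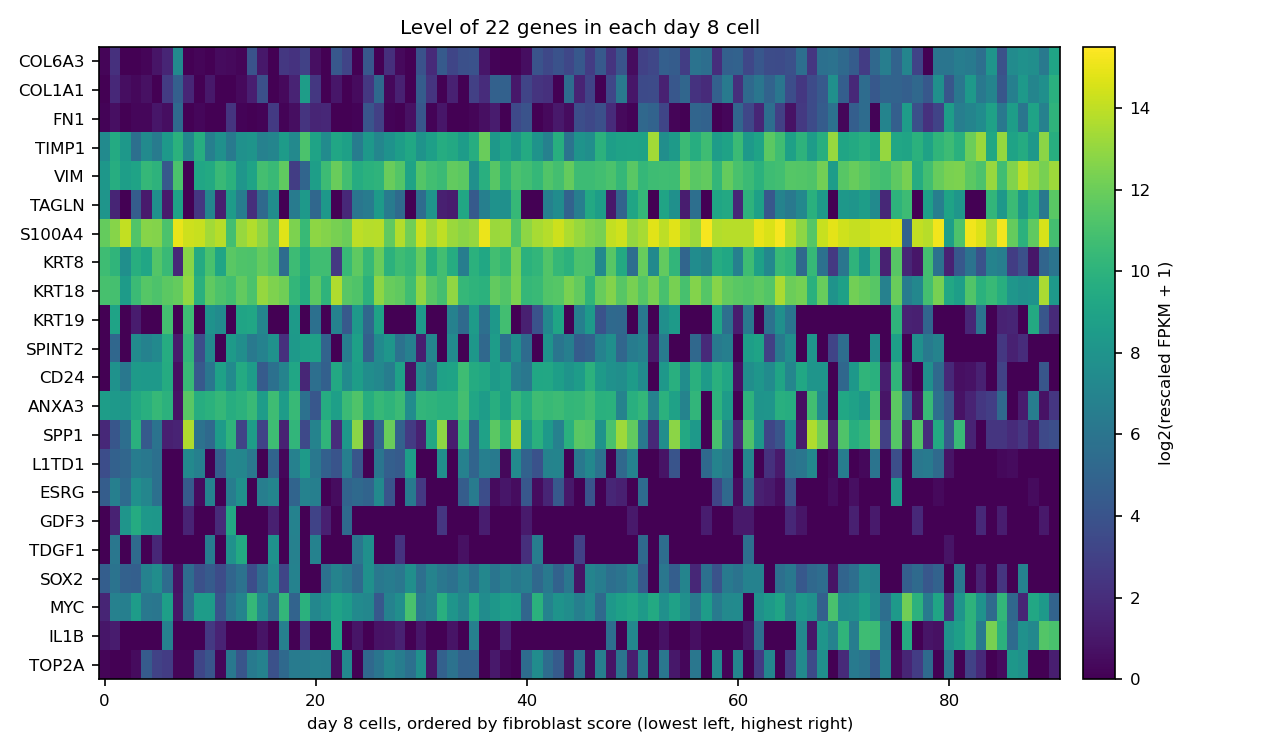
Levels of 22 genes (rows, grouped by role) in the 91 day 8 cells (columns, ordered by the fibroblast score), as log2(value + 1) of the rescaled FPKM. Collagen and FN1 rows fade towards the cells of low fibroblast score, KRT18 and S100A4 are high in nearly all cells, and GDF3, TDGF1, ESRG and KRT19 are patchy.

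Each cell was summarised by 3 scores. A score is the mean of log2(value + 1) over the members of a list with a day 8 mean of 1 or more: 46 fibroblast genes, 26 of 37 epithelial genes and 15 of 34 pluripotency genes. The fibroblast score ran from 2.30 to 7.36 over the day 8 cells with a median of 4.35, between the medians of 6.56 in BJ cells and 2.04 in TRA-1-60 positive cells. The epithelial score ran from 0.611 to 5.75 with a median of 1.99, against 0.716 in BJ cells and 2.51 in TRA-1-60 positive cells. The pluripotency score ran from 0.046 to 3.94 with a median of 1.32, against 0.319 in BJ cells and 5.13 in TRA-1-60 positive cells. Day 8 cells overlapped with all other groups: 66 of 91 lay inside the range of BJ cells on the fibroblast score, 16 on the epithelial and 43 on the pluripotency score. By the pluripotency score, 13 of 91 lay inside the range of TRA-1-60 positive cells. In the range of TRA-1-60 negative cells, which had a median of 1.13 on this score, lay 86 of 91. On the fibroblast score TRA-1-60 negative cells had a median of 7.20, with 12 of 91 day 8 cells in their range. On the epithelial score they had a median of 1.34, with 60 of 91 in their range. The differences between groups were not tested. The members of the epithelial and pluripotency scores passed a filter on their day 8 mean, which favours day 8 over other groups. Over all 37 epithelial members the medians were 1.46 at day 8, 0.531 in BJ cells and 1.97 in TRA-1-60 positive cells, and over all 34 pluripotency members 0.602, 0.158 and 3.77.

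**Figure D2:**
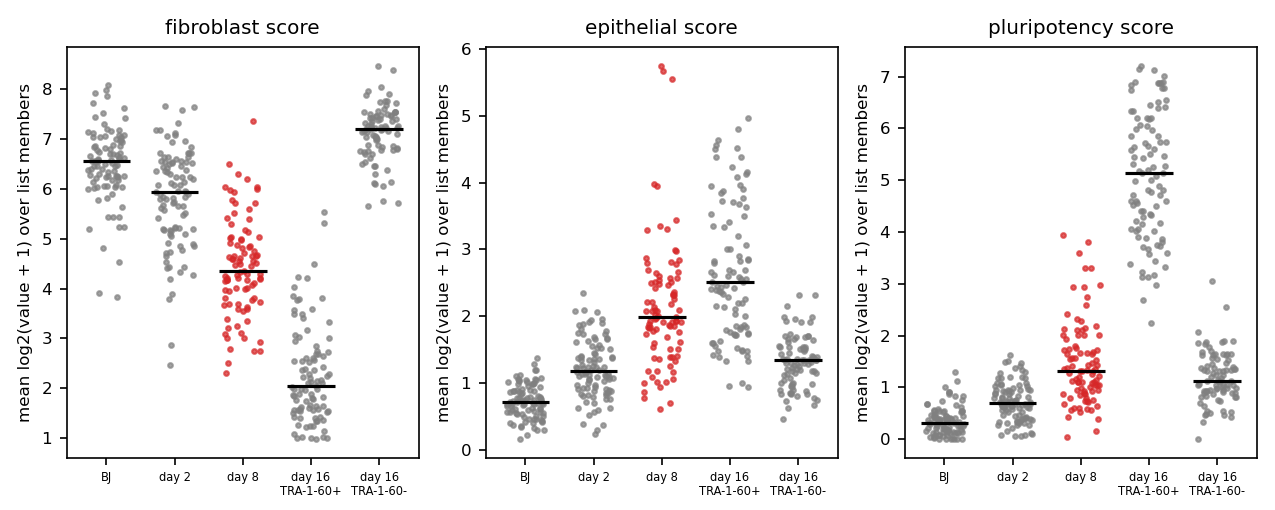
Fibroblast, epithelial and pluripotency scores (mean log2(value + 1) over the list) for each cell of the 5 groups, with day 8 in red and a black bar at the median of each group. Day 8 cells have a median fibroblast score of 4.35, between 6.56 in BJ cells and 2.04 in TRA-1-60 positive cells, and 3 of them lie above all other cells on the epithelial score.

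Fibroblast genes were lower by unequal amounts. Of the 46 members, 37 had a lower mean at day 8 than in BJ cells and 9 a higher one, 14 were detected in at least 90% of day 8 cells, and 14 in under 50%. The median SD of log2(value + 1) over cells was 2.06 for these genes at day 8, 2.02 at day 2 and 1.62 in BJ cells. For all genes it was 1.86, 1.99 and 1.89 in that order. For 33 of the 46 members the SD was larger at day 8 than in BJ cells.

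Among the matrix genes, FN1 (fibronectin) ran from 0 to 1072 with a median of 2.36, and was detected in 50 cells (54.9%), against a median of 973 and detection in every BJ cell. COL1A1, a chain of type I collagen, ran from 0 to 919.5 with a median of 7.58 against 443 in BJ cells, and was detected in 67 cells. COL1A2, the other chain of the same collagen, ran from 0 to 4006 with a median of 153 against 1597, and was detected in 89 cells. COL6A3, a chain of type VI collagen, ran from 0 to 538 with a median of 8.93 against 164, and was detected in 65 cells (71.4%). The matrix genes therefore spanned cells at the level of BJ fibroblasts and cells listed at 0.

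The most abundant members behaved differently from the matrix genes. S100A4, a calcium-binding protein also called fibroblast-specific protein, was detected in all 91 cells, from 28.2 to 40714 with a median of 13186 against 2499 in BJ cells. S100A6, of the same family, ran from 2704 to 26276 with a median of 6845 and was detected in all cells. LGALS1 (galectin-1) ran from 14.3 to 37455 with a median of 4299 against 15170 in BJ cells. VIM, the intermediate filament of mesenchymal cells, ran from 0 to 15193 with a median of 1785 against 7057 in BJ cells. TIMP1, an inhibitor of matrix metalloproteases, ran from 48.7 to 10391 with a median of 498 and was detected in all cells. S100A4 and S100A6 were thus also high in cells that had little fibronectin. The median of S100A4 was above that in BJ cells, so its level at day 8 is not one kept from the fibroblasts.

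Members that varied most were not all tied to the rest of the list. LUM (lumican), a collagen-binding proteoglycan, was detected in 25 cells (27.5%) against 81.5% of BJ cells. POSTN (periostin), a matricellular protein, was detected in 52 cells, and MFAP4, a microfibril protein, in 53. MFAP5, another microfibril protein, ran from 0 to 1075 with a median of 180 and was detected in 77 cells against 27.2% of BJ cells. TGFBI, a matrix protein induced by TGF-beta, ran from 0 to 2467 with a median of 182, and TIMP3 from 0 to 1362 with a median of 26.3.

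How the members moved together was described by Spearman's rho over the 91 cells between a gene and the fibroblast score, the gene itself left out of the score. As far as the labels say, all cells come from 1 culture, and they share a scaling to the same total, so a gene that takes a large part of a cell lowers the others. A gene was called at a rho of 0.3 or more in size, among 9115 genes detected in at least 20% of cells. By that rule 32 of 46 fibroblast members were called positive and 0 negative, with a median rho of 0.45 and a range from -0.10 to 0.71. Of all genes tested 8.44% were called positive (769 genes) and 1.46% negative (133 genes), with a median rho of 0.08.

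SPARC, a collagen-binding matrix protein, followed the other fibroblast genes most closely among the members, with rho = 0.71. COL6A3 had 0.68, COL1A1 and COL1A2 had 0.67 each, LOXL2, a collagen-crosslinking enzyme, 0.64, FN1 0.62, VIM 0.61 and LUM 0.54. POSTN, at -0.10, MFAP5, at 0.09, TGFBI, at 0.13, MFAP4, at 0.17, S100A6, at 0.18, and S100A4, at 0.22, were close to the median of all genes. The collagens, fibronectin and vimentin were thus high and low in the same cells, and several abundant or variable matrix genes went their own way. Over all genes the highest values belonged to DKK3, a secreted Wnt modulator, at 0.76, SPARC, CD59, a complement inhibitor on the cell surface, at 0.70, COL6A3 and COL1A1. The lowest were RPS27A (-0.61), RPL26 (-0.57), SLIRP (-0.55), RPL27A (-0.54) and RPS16 (-0.53). All but SLIRP, a mitochondrial RNA-binding protein, encode ribosomal proteins, a family with many near-identical pseudogenes that could split reads.

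The ribosomal genes touch every score. The summed level of 82 ribosomal protein genes ran from 13.2% to 33.8% of a cell with a median of 21.8%. It had a rho of -0.49 with the fibroblast, 0.30 with the epithelial and 0.32 with the pluripotency score. The number of detected genes had a rho of 0.35 with the fibroblast score and of -0.02 with the pluripotency score, and the deposited FPKM total -0.41 and 0.24. Their part in the results was not tested beyond the partial correlations and the rescaling without ribosomal genes given below.

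**Figure D3:**
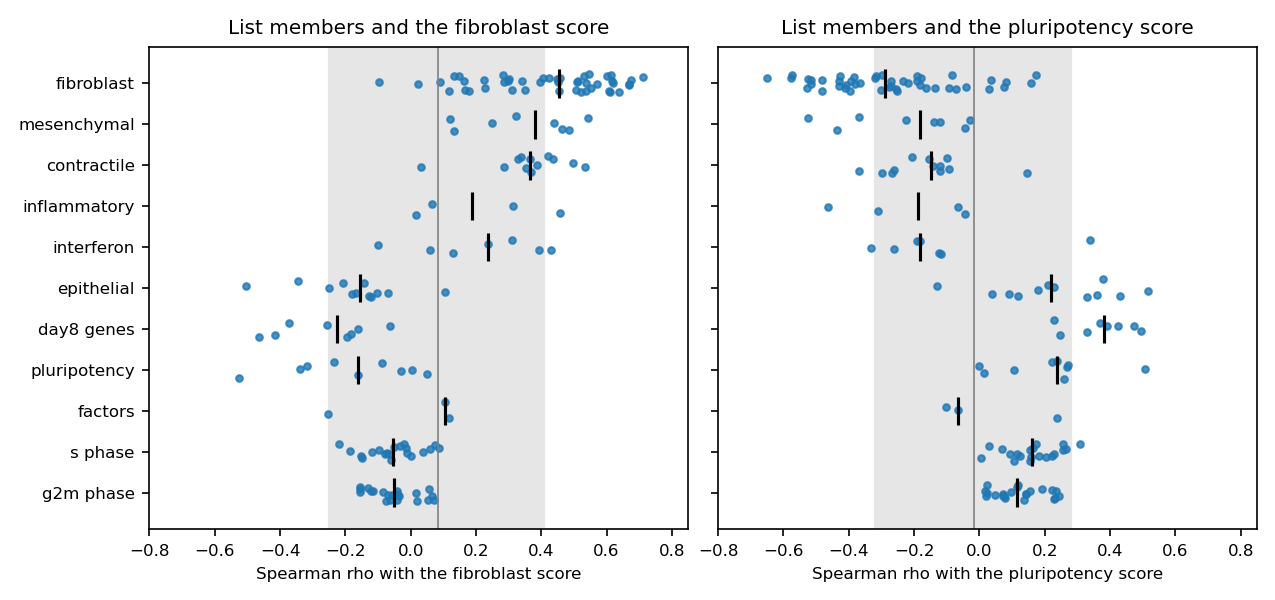
Spearman's rho over 91 day 8 cells of each list member (points) with the fibroblast (left) and pluripotency (right) score, the member left out of its own score. The grey band holds the middle 95% of all genes tested, the grey line is their median and the black tick the median of the list. Fibroblast members lie mostly above the grey line for the fibroblast score (median 0.45) and mostly below it for the pluripotency score (median -0.29).

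Of the mesenchymal transcription factors and cadherins, PRRX1, TWIST2, SNAI2, ZEB1 and CDH11 followed the fibroblast score. All 11 members of this list had a lower mean than in BJ cells. PRRX1, a homeobox factor of mesenchyme, was detected in 39 cells (42.9%) against 95.7% of BJ cells. SNAI2, a repressor of epithelial genes, was detected in 26 cells against 85.9%. ZEB1, a repressor of E-cadherin, was detected in 50 cells against 76.1%, and TWIST2 in 72 cells against 69.6%. Of 8 members tested, 5 were called positive with the fibroblast score (median rho 0.38, against 0.08 and 8.44% called for all genes). PRRX1 had 0.54, TWIST2 0.49, SNAI2 0.46 and ZEB1 0.44, while CDH2 (N-cadherin) had 0.13. The mean of this list had a rho of 0.76 with the fibroblast score.

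Most contractile genes were also called with the fibroblast score. Of 12 tested, 10 were called positive with it (median rho 0.37, against 0.08 and 8.44% called for all genes). With the epithelial score 1 was called negative (all genes 1.17%) and with the pluripotency score 1 negative (all genes 3.41%), in both cases TPM2. TPM2, a tropomyosin, had a rho of 0.53 with the fibroblast score, and TAGLN (transgelin), an actin-binding protein of smooth muscle, 0.34. TAGLN ran from 0 to 3019 with a median of 100.5 against 2356 in BJ cells, and was detected in 78 cells. Its rho with KRT8 was 0.06, where TIMP1 had -0.66 and VIM -0.46. MYLK, the myosin light chain kinase, had -0.52 with KRT8 and ACTA2, smooth muscle actin, -0.04, so contractile genes differed among themselves in their relation to the keratin.

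Epithelial genes were gained unevenly. Of the 37 members, 31 had a higher mean at day 8 than in BJ cells, 28 were detected in a larger share of cells, and 8 were detected in at least 50% of day 8 cells. The keratin pair came first: KRT18 ran from 90.3 to 13042 with a median of 2678 and was detected in all 91 cells, against a median of 195 and 94.6% of BJ cells. Its partner KRT8 was detected in 89 cells but stood at 100 or more in 67. Both have processed pseudogenes that could split reads. The rho between the partners was 0.32, so cells full of KRT18 were not all full of KRT8.

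A middle layer of surface and junction genes was present in most cells. CD24, a mucin-like surface glycoprotein, ran from 0 to 1645 with a median of 199.5, and was detected in 76 cells (83.5%) against 3.26% of BJ cells. SPINT2, an inhibitor of epithelial serine proteases, ran from 0 to 1159 with a median of 54.02, and was detected in 67 cells (73.6%) against 2.17%. PERP, a desmosomal protein, was detected in 79 cells (86.8%) against 53.3%. JUP (plakoglobin) was detected in 76 cells against 7.61%.

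The genes of sealed epithelial junctions were rarer. CLDN4, a tight junction claudin, was detected in 34 cells (37.4%) against 1.09% of BJ cells, and OCLN (occludin) in 21 cells against 0. KRT19 ran from 0 to 1853 with a median of 2.17, and was detected in 53 cells (58.2%), and KRT7 in 26 cells (28.6%) against 59.8% of BJ cells. EPCAM was detected in 13 cells (14.3%) against 2.17%. CDH1 was detected in 11 cells (12.1%, exact 95% interval 6.19 to 20.6%) against 1.09%, and reached 72.5. Regulators of the epithelial state were rarer still: ELF3 was detected in 17 cells, GRHL2 and OVOL1 in 5 each, and ESRP1, a splicing factor, in 4. Intervals cover counting of cells only. All 3 cells that stood apart held CDH1 and 2 of them EPCAM, which leaves 8 of 88 other cells with CDH1 and 11 with EPCAM. KRT8, KRT18, CD24 and SPINT2 were thus on in most cells that had no detected E-cadherin.

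With the epithelial score, 9 of 12 epithelial members tested were called positive and 0 negative (median rho 0.42). Of all genes tested 2.61% were called positive (238 genes) and 1.17% negative (107 genes), with a median rho of 0.02. KRT8 was the highest at 0.64, SPINT2 had 0.53, CLDN4 and KRT19 0.51 each, and CD24 0.48. KRT18 had 0.31, PERP 0.22 and DSP (desmoplakin) 0.10, the last detected in 74.7% of day 8 and 78.3% of BJ cells. Among all genes KRT8 was followed by ANXA3 (0.61), GSTP1, a glutathione transferase (0.60), EPPK1, the keratin linker epiplakin (0.55), and IL18 (0.55). Among the lowest were LGALS1 and VIM (-0.49 each), ANPEP, an aminopeptidase of fibroblasts (-0.48), and SH3BGRL3 (-0.46).

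Pluripotency genes were detected in part of the cells and for part of the list. Of 34 members, 25 were detected in a larger share of day 8 than BJ cells, 4 were detected in at least 50% of day 8 cells, and 9 in none. For a count of 0, a limit of 3 cells of 91 allows up to 3.30% of cells with a detected value, which is no limit on cells that express the gene. ZFP42, DPPA2, DPPA3, PRDM14, FOXD3, LIN28B, FGF4 and TERT were listed at 0 in every day 8 cell. L1TD1 (60.4%) and PODXL, the sialomucin that carries TRA-1-60 (81 cells, 17.4% of BJ cells), were the most general of those rarely detected in BJ cells. GAL (galanin), a neuropeptide, was detected in 46 cells (50.5%) against 20.7% of BJ cells.

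The next genes marked smaller sets of cells. ESRG, a long non-coding RNA of human embryonic stem cells, ran from 0 to 321 with a median of 0.422, and was detected in 39 cells (42.9%), 0 BJ cells and 98.9% of TRA-1-60 positive cells. GDF3, a TGF-beta family ligand, ran from 0 to 730 and was detected in 27 cells (29.7%) against 1.09% of BJ cells. TRIM71, an RNA-binding ubiquitin ligase, was detected in 19 cells (20.9%) and 0 BJ cells. TDGF1, the Nodal co-receptor Cripto, ran from 0 to 693 and was detected in 18 cells (19.8%) against 1.09%. GDF3 and TDGF1 were thus strong in a few cells while their medians were 0.

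The core factors were the rarest. SALL4 and DNMT3B were detected in 11 cells each. NANOG was detected in 6 cells (6.59%), reached 100.6 and was detected in 0 BJ cells and 84.2% of TRA-1-60 positive cells. DPPA4 and LIN28A were detected in 2 cells each.

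Pluripotency members were only loosely tied to each other. With the pluripotency score, 1 of 9 members tested was called positive and 0 negative, with a median rho of 0.24. Of all genes tested 2.01% were called positive (183 genes) and 3.41% negative (311 genes), with a median rho of -0.02. The called member was ESRG, at 0.51. L1TD1 and GAL had 0.27 each, TRIM71 0.26, GDF3 0.24, and TERF1, a telomere-binding protein detected in 40.2% of BJ cells, had -0.002. The rarer NANOG, at 0.36, TDGF1, at 0.38, and DNMT3L, a DNA methylation cofactor, at 0.34, were detected in under 20% of cells and were not among the genes tested.

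The highest values among all genes tested belonged to genes outside the list, which were set against the full score. List members were left out of their own score, so the values are not on the same footing. Against the full score, of which it is a part, ESRG had 0.67. MT1X, a metallothionein, had 0.57, CALB1 (calbindin) 0.54, CHST2, a sulfotransferase, 0.53, and GSTP1 and KRT8 0.52 each. The lowest were COL1A2 (-0.65), TSPO, a mitochondrial translocator protein (-0.62), LTBP2, a latent TGF-beta binding protein (-0.59), CD59 (-0.59) and ANPEP (-0.58). Metallothioneins are near-identical copies, so the member that MT1X reads came from is uncertain. With members left out of their own score, the value of largest size was thus the negative one of COL1A2.

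The scores were then set against each other. The fibroblast and pluripotency scores had rho = -0.59 over the 91 cells (Pearson's r = -0.58), and -0.62 as a partial rank correlation given the number of detected genes. The fibroblast and epithelial scores had rho = -0.37 (r = -0.38, partial -0.44). The epithelial and pluripotency scores had rho = 0.53 (r = 0.38, partial 0.54). Without the 2 cells farthest from the median on the first score of each pair, rho was -0.57, -0.35 and 0.57. Without the 3 cells of high epithelial score it was -0.62, -0.34 and 0.56, with both near-identical libraries counted -0.58, -0.37 and 0.52, and after rescaling without ribosomal protein genes -0.59, -0.37 and 0.54. As numbers of detected members in place of mean levels, the fibroblast score had -0.38 with the pluripotency and -0.175 with the epithelial count. In cells of 4000 or more detected genes, fibroblast and epithelial scores had -0.49. Fibroblast genes were thus lower where pluripotency and epithelial genes were higher, more by level than by the number of genes on.

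Part of this rested on the cells that were most like fibroblasts. A set of 12 day 8 cells lay inside the range of TRA-1-60 negative cells on the fibroblast score. Without them the remaining 79 cells had rho = -0.44 between fibroblast and pluripotency scores, -0.19 between fibroblast and epithelial scores, and 0.41 between epithelial and pluripotency scores. Leaving out one end of a score lowers a rho by itself. In the 79 cells ESRG had -0.44 and KRT8 -0.31 with the fibroblast score, while ANXA3 had -0.16, SPINT2 -0.17 and L1TD1 -0.14. In the 75 cells with detected SOX2 the score pairs had -0.54, -0.24 and 0.38. ESRG and KRT8 thus kept a negative relation to the fibroblast genes among the less fibroblast-like cells, and the other 3 genes had values nearer to 0.

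**Figure D4:**
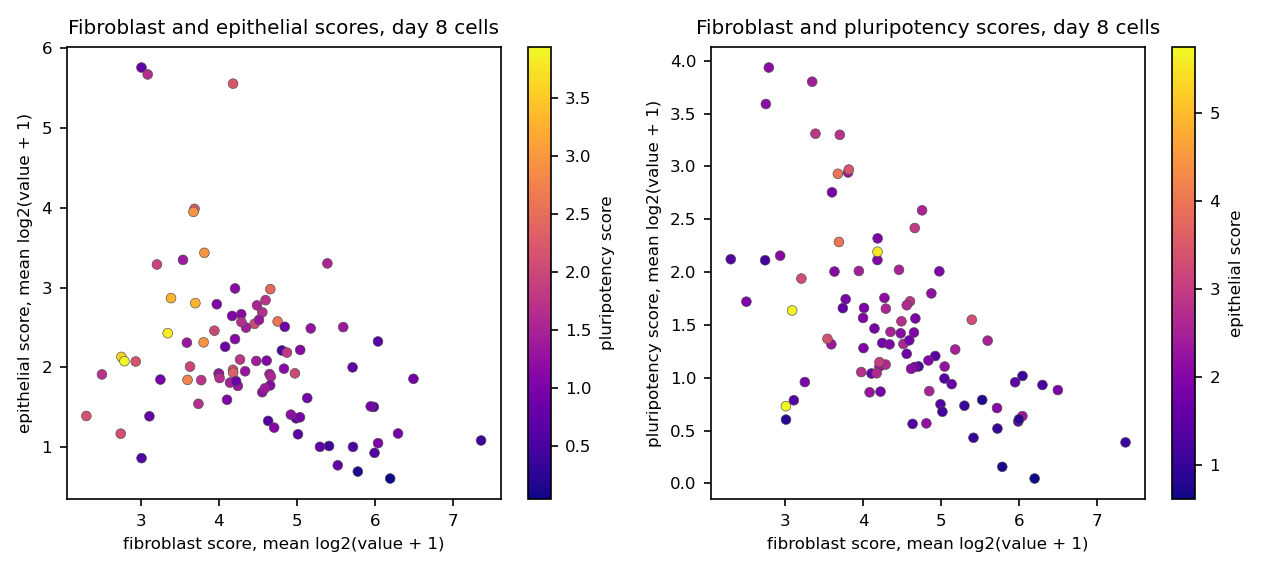
Each point is 1 of 91 day 8 cells, with its fibroblast score on the x axis against its epithelial score (left, coloured by pluripotency score) or its pluripotency score (right, coloured by epithelial score), each a mean of log2(value + 1). The clouds are broad and slope down, with Spearman's rho of -0.37 and -0.59, and 3 cells of high epithelial score lie above the rest on the left.

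By list members, 22 of 46 fibroblast genes were called negative and 0 positive with the pluripotency score (median -0.29, against -0.02 for all genes). With the epithelial score 12 were called negative and 1, MFAP5, positive (median -0.21, against 0.02). In the other direction, 2 of 12 epithelial genes (KRT8 and SPINT2) and 3 of 9 pluripotency genes were called negative with the fibroblast score, with medians of -0.15 and -0.16 against 0.08 for all genes. The 3 were ESRG (-0.53), GAL (-0.34) and L1TD1 (-0.32). With the pluripotency score 5 of 12 epithelial genes were called positive (median 0.22), and with the epithelial score 3 of 9 pluripotency genes, ESRG (0.50), PODXL (0.36) and L1TD1 (0.31). GDF3 had -0.03 with the epithelial score. Among all genes 3.41% were called negative with the pluripotency, 1.17% with the epithelial and 1.46% with the fibroblast score. Positive calls made up 2.01% with the pluripotency and 2.61% with the epithelial score.

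Pairs with the fibroblast score had other rho values in the other groups, and the differences were not tested. Fibroblast and epithelial scores had a rho of 0.40 in BJ cells, 0.17 at day 2, 0.26 in TRA-1-60 positive and -0.13 in TRA-1-60 negative cells. Fibroblast and pluripotency scores had 0.16, -0.04, -0.01 and -0.08 in that order. Given the number of detected genes, TRA-1-60 positive cells had -0.32 for the first pair and -0.53 for the second, while BJ cells had 0.30 and 0.03. The number of detected genes thus moved with these values most in the sorted positive cells, of which 32 had under 4000 detected genes, against 4 of the day 8 libraries. Epithelial and pluripotency scores had a rho of 0.53 at day 8, 0.51 at day 2 and 0.77 in TRA-1-60 positive cells. In BJ cells it was 0.20 and in TRA-1-60 negative cells 0.21. Given the number of detected genes, these values were 0.54, 0.25, 0.51, 0.085 and 0.12 in that order. This positive relation was thus not particular to day 8.

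Pairs of single genes show what the scores average. Over 61 genes, 1830 pairs were computed, with a median rho of 0.02 of which 217 had a rho of 0.3 or more and 126 of -0.3 or less. The pairs given next were chosen after their values were seen. Between 17 fibroblast and 10 pluripotency genes, 29 of 170 pairs had a rho of -0.3 or less and 3 of 0.3 or more. Between fibroblast and 10 epithelial genes it was 26 and 4 of 170, and between epithelial and pluripotency genes 0 and 8 of 100.

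ESRG shared few cells with PRRX1, SNAI2 and LUM. PRRX1 and ESRG were detected together in 6 cells, where the product of their shares gives 16.7, with PRRX1 alone in 33, ESRG alone in 33 and neither in 19 (rho -0.48). SNAI2 and ESRG were together in 4 cells against 11.1, and LUM and ESRG in 3 against 10.7. Other mesenchymal genes did not show this: TWIST2 and ESRG were together in 31 cells against 30.9, and CDH2 and ESRG in 27 against 27. COL6A3 was still detected in 22 of the 39 cells with ESRG, where 27.9 come from the shares (rho -0.50). VIM and ESRG had a rho of -0.51, although VIM was detected in 98.9% of cells.

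L1TD1 was detected in more cells than ESRG and shared more cells with FN1 and COL6A3. Both L1TD1 and ESRG met FN1 and COL6A3 in fewer cells than the product of shares gives. FN1 and L1TD1 were detected together in 23 cells against 30.2 from the shares, with FN1 alone in 27, L1TD1 alone in 32 and neither in 9 (rho -0.38). COL6A3 and L1TD1 were together in 32 cells against 39.3, and 3 cells had neither (rho -0.44). FN1 and ESRG were together in 16 cells against 21.4 (rho -0.30), and FN1 and GDF3 in 13 against 14.8 (rho -0.09). By detection at 1 or more, GDF3 was thus found with and without fibronectin at close to the rate that the shares give. Many of these cells held GDF3 only a little above 1. The cells with strong GDF3 lay towards low fibroblast scores, and most of them had FN1 below 1. Pearson's r between log2(value + 1) of GDF3 and the fibroblast score was -0.39. POSTN went the other way from the collagens, with a rho of 0.35 with L1TD1 and -0.34 with COL6A3.

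E-cadherin and its repressor were never detected in the same cell. ZEB1 was detected in 50 cells and CDH1 in 11, with 0 in common where the shares give 6.04, and 30 cells had neither (rho -0.305). CDH1 and FN1 were together in 5 cells, so 5 of the 11 cells with E-cadherin still held fibronectin at 1 or more. CDH1 and SPINT2 were together in 10 cells against 8.10, CDH1 and ESRG in 9 against 4.71, and CDH1 and EPCAM in 5 against 1.57. FN1 and SPINT2 were together in 35 cells against 36.8, which is near the rate from the shares, although their levels had a rho of -0.31. Detected fibronectin and detected SPINT2 were thus not exclusive at this threshold. With detection at 5 or more, cells with both minus the product of shares went from -1.81 to -6.93.

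Early pluripotency genes accompanied each other in part. L1TD1 and ESRG were detected together in 32 cells against 23.6 from the shares, with L1TD1 alone in 23 and ESRG alone in 7 (rho 0.35). L1TD1 and GDF3 were together in 22 cells against 16.3, so 22 of 27 cells with GDF3 had L1TD1. ESRG and TDGF1 were together in 14 cells against 7.71 (rho 0.42), ESRG and GDF3 in 15 against 11.6 (rho 0.21), and GDF3 and TDGF1 in 9 against 5.34. All 6 cells with NANOG had L1TD1, ESRG and GDF3 detected, where the shares give 3.63, 2.57 and 1.78 cells, and 4 of the 6 had TDGF1. The rare NANOG cells thus lay inside the sets marked by the other 3 genes.

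Epithelial and pluripotency genes also met in the same cells. SPINT2 and ESRG were detected together in 36 cells against 28.7, with ESRG alone in 3 (rho 0.50). SPINT2 and L1TD1 were together in 46 cells against 40.5 (rho 0.42), and EPCAM and L1TD1 in 12 of the 13 cells with EPCAM, against 7.86. KRT8 had a rho of 0.51 with ESRG, of 0.58 with SPINT2, of 0.39 with KRT19 and of 0.39 with CD24. ESRG without SPINT2 was thus the rare case, and SPINT2 without ESRG, in 31 cells, the common one.

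**Figure D5:**
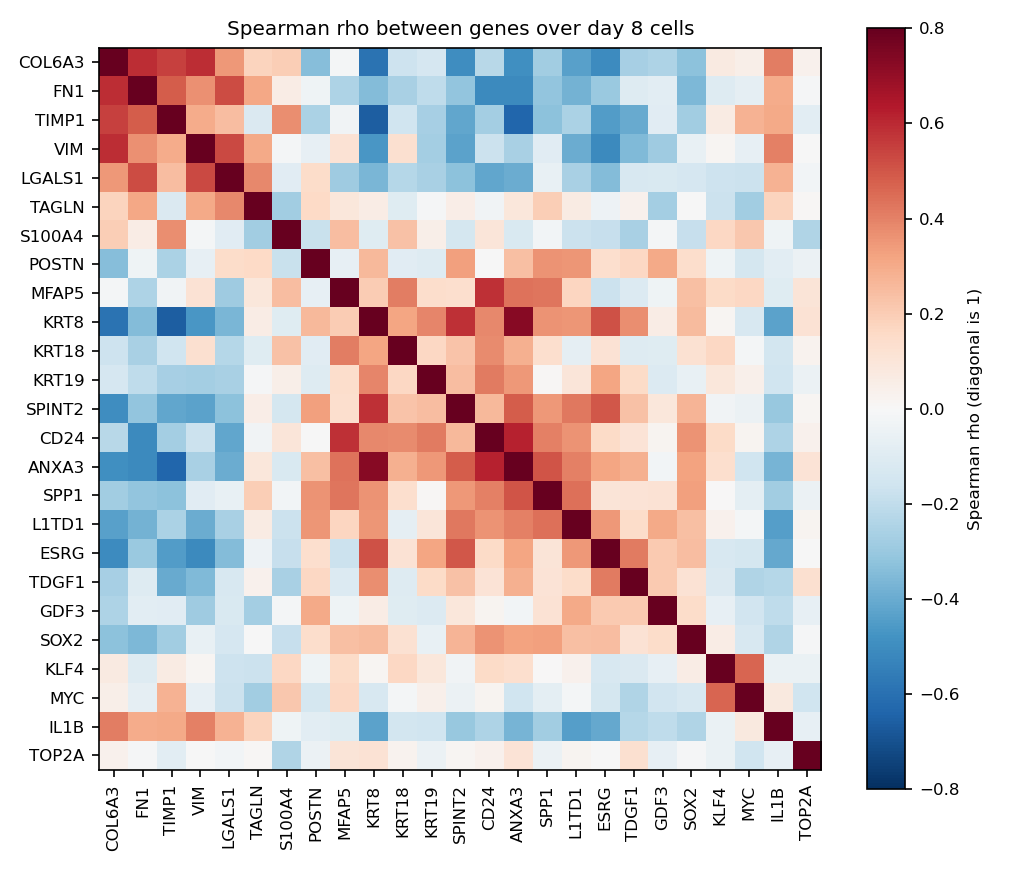
Spearman's rho over the 91 day 8 cells for pairs of 25 genes, from blue (negative) to red (positive), with the diagonal at 1. COL6A3, FN1, TIMP1 and VIM form a red block that is blue with KRT8, ANXA3, SPINT2 and ESRG, and the GDF3, MYC and TOP2A rows are mostly pale.

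Genes most like the markers were taken over 5194 genes detected in at least 20% of cells with a mean of 10 or more. KRT8 called 3.16% of them positive (164 genes) and 2.83% negative (147 genes). Its nearest genes were ANXA3 (rho 0.73), OLFML3, a secreted glycoprotein (0.65), MT1X (0.60), GSTP1 (0.59) and CALB1 (0.59). Its lowest were TIMP1 (-0.66), SH3BGRL3 (-0.61), COL6A3 (-0.59), RHOC, a small GTPase of the cytoskeleton (-0.54), and ANPEP (-0.54).

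ANXA3 called 4.83% positive (251 genes) and 2.02% negative (105 genes). After KRT8 its nearest genes were OLFML3 (0.68), CD24 (0.62), PPP1R2, a phosphatase inhibitor subunit (0.61), and PLA2G16, a phospholipase (0.61). Its lowest were TIMP1 (-0.64), SH3BGRL3 (-0.60), LMO7 (-0.56), IFI27L2 (-0.51) and FN1 (-0.51). KRT8 and ANXA3 were thus each other's closest gene and shared TIMP1 and SH3BGRL3 as their lowest.

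SPP1 called 2.35% positive (122 genes) and 0.635% negative (33 genes). Its nearest genes were OLFML3 (0.58), TMEM178A (0.56), PLA2G16 (0.55), IGFBP5, an IGF-binding protein (0.53), and ANXA3 (0.50). Its lowest were LMO7 (-0.42), MAL (-0.41), TIMP3 (-0.40), NAA38 (-0.40) and MGP, matrix Gla protein (-0.37). Its rho with the fibroblast score was -0.06, against -0.50 for KRT8 and -0.42 for ANXA3. SPP1 had a rho of -0.31 with FN1, and most of the cells of highest fibroblast score held little SPP1. The rho with the score thus does not mean that osteopontin was equally high at every fibroblast score.

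L1TD1 called 1.02% positive (53 genes) and 2.25% negative (117 genes). Its nearest genes were PRKAR2B, a regulatory subunit of protein kinase A (0.51), GSTP1 (0.45), SPP1 (0.44), CHST2 (0.44) and SUSD2, a surface protein also found on naive pluripotent cells (0.43). Its lowest were TSPO (-0.57), C12orf75 (-0.46), GLT8D2 (-0.45), CTSK, the collagen-cleaving protease cathepsin K (-0.44), and IL1B (-0.44).

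FN1 called 3.85% positive (200 genes) and 2.04% negative (106 genes). Its nearest genes were COL6A3 (0.59), LOXL2 (0.55), UBE2L6 (0.55), COL1A2 (0.53) and COL1A1 (0.52). Its lowest were PLA2G16, ANXA3, CD24 and C19orf33 (-0.51 each) and LIM2 (-0.46). Collagens and LOXL2 were thus among its nearest genes. PLA2G16, ANXA3 and C19orf33, of the day 8 genes listed below, were among its lowest.

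For reference, the promoter windows of the closest pair and of the collagen opposite to KRT8 are shown as RefSeq gives them on GRCh38.p14, 250 bases before to 50 after the start, 5′ to 3′ on the gene's strand. KRT8 lies at chr12:52926420-52926719 on the minus strand, ANXA3 at chr4:78551520-78551819 on the plus strand and COL6A3 at chr2:237414115-237414414 on the minus strand. Capitals mark a match to a motif searched on both strands: AP-1 TGANTCA, the octamer ATGCAAAT, TEAD GGAATG or SP1 GGGCGG.
KRT8: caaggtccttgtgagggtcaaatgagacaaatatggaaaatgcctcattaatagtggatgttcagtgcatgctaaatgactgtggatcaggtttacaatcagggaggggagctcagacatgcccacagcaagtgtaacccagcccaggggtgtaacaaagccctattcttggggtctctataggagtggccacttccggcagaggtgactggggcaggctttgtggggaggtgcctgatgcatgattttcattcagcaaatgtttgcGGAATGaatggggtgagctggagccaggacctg
ANXA3: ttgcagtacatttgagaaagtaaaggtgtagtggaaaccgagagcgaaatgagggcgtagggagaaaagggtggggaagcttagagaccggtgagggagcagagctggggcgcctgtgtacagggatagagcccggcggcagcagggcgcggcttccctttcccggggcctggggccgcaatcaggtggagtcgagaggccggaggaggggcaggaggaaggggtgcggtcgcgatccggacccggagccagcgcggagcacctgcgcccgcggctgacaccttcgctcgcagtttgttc
COL6A3: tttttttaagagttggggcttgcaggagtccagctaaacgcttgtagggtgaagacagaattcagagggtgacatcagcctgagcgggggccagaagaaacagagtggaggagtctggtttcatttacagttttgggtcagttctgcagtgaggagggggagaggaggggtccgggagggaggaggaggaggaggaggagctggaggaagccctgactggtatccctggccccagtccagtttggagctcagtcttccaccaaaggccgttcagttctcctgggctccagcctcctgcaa
The KRT8 window held 1 TEAD motif and the other windows held none of the 4. Over all 27305 promoters in the table, 7.76% held the AP-1, 1.80% the octamer, 14.1% the TEAD and 44.6% the SP1 motif. Only 29 of 46 fibroblast, 8 of 12 epithelial and 4 of 9 pluripotency genes tested had a window in the table, under the 80% set for such a check, so comparing motif shares between the lists is void.

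Genes that separate day 8 from the earlier groups were set against the scores. The list of 8 (SPP1, ANXA3, AKR1C1, PLA2G16, C19orf33, OLFML3, CD83 and UPP1) was drawn from earlier results of these data, so its level at day 8 is no finding. Every member was detected in at least 83.5% of day 8 cells. OLFML3 ran from 0.986 to 1723 at the median and 6662 at the highest, AKR1C1, an aldo-keto reductase, had a median of 262, and CD83, a surface protein of activated immune cells, one of 204. With the pluripotency score 6 of 8 were called positive (median rho 0.38, all genes 2.01%), with the epithelial score 5 (median 0.37, all genes 2.61%), and with the fibroblast score 3 negative (median -0.23, all genes 1.46%). The median SD of log2(value + 1) for these genes was 3.06 over day 8 cells, against 1.86 for all genes, so the genes that mark the group were also among those that varied most inside it.

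The introduced factors were not evenly spread. Viral and endogenous transcripts share 1 value. SOX2 ran from 0 to 221 with a median of 47.4, and was detected in 75 cells (82.4%), with 13 listed at 0, against 2.17% of BJ cells. KLF4 ran from 0 to 269.5 with a median of 2.14 and was detected in 57 cells, and MYC from 0 to 4570 with a median of 203 and was detected in 89. KLF4 and MYC had a rho of 0.46, and SOX2 and MYC of -0.13. None of the 3 was called with any score: SOX2 had -0.25 with the fibroblast and 0.24 with the pluripotency score, KLF4 0.10 and -0.07, and MYC 0.12 and -0.10. All 16 cells without detected SOX2 had detected FN1, where SOX2 and FN1 were together in 34 cells against 41.2 from the shares (rho -0.36). SOX2 had a rho of 0.36 with CD24.

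How many cells held each programme was counted by a set number of detected members: 23 of 46 fibroblast genes, 13 of 26 epithelial genes, and 3 of the pluripotency genes without PODXL. Of 91 cells, 83 (91.2%) held the fibroblast, 13 (14.3%) the epithelial and 70 (76.9%) the pluripotency programme. The most common state was fibroblast with pluripotency and without epithelial, in 53 cells (58.2%, exact 95% interval 47.4 to 68.5%). The same state was found in 15 of 92 BJ cells (16.3%), 46 of 96 day 2 cells (47.9%), 62 of 85 TRA-1-60 negative cells (72.9%) and 14 of 95 TRA-1-60 positive cells (14.7%), so every group held cells in it. Fibroblast alone was found in 18 cells, all 3 programmes in 10, pluripotency alone in 6, epithelial alone in 0 and none in 1. Without the 3 cells of high epithelial score, 10 of 88 held the epithelial programme and 9 all 3. Of the 13 cells with the epithelial programme, 12 also held the fibroblast one, which is close to its share of 91.2% over all day 8 cells.

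The count of pluripotency members depends on genes that BJ cells also express, since 15 of 92 BJ cells reached 3. With the 29 members detected in under 10% of BJ cells, 39 of 91 day 8 cells (42.9%) reached 3, against 1 BJ cell (1.09%), 5.21% of day 2 cells, 23.5% of TRA-1-60 negative and 100% of TRA-1-60 positive cells. By the same rules 0 of 92 BJ, 0 of 96 day 2 and 0 of 85 TRA-1-60 negative cells held the epithelial programme, and 34 of 95 TRA-1-60 positive cells did. These 26 members were kept for their day 8 mean, so lower counts in other groups are partly built in. With 19 of all 37 members as the rule, 4 day 8 cells, 23 TRA-1-60 positive cells and 0 cells of the other groups held it, and the most members detected in any cell were 27 at day 8, 9 in BJ, 12 at day 2 and 11 in TRA-1-60 negative cells. The fibroblast programme was held by all BJ, day 2 and TRA-1-60 negative cells and by 20 TRA-1-60 positive cells. The threshold for detection sets these counts: at 5 or more, 8 day 8 cells held the epithelial, 45 the pluripotency programme and 4 all 3.

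IL1B and CXCL1, of the inflammatory genes, were higher where fibroblast genes were higher. IL1B, the cytokine interleukin 1 beta, ran from 0 to 5210 with a median of 0.561, and was detected in 33 cells (36.3%) against 20.7% of BJ cells. CXCL1, a neutrophil-attracting chemokine, was detected in 40 cells. IL1B and CXCL1 were detected together in 20 cells against 14.5 (rho 0.31), IL1B and L1TD1 in 10 against 19.95 (rho -0.44), and IL1B and ESRG in 6 against 14.1 (rho -0.41). The rho of IL1B with the fibroblast score was 0.46 and with the pluripotency score -0.46. Of the 4 inflammatory genes tested, 2 were called positive with the fibroblast score and 2 negative with the pluripotency score, in both cases IL1B and CXCL1. The median of the 4 with the fibroblast score was 0.19, against 0.08 for all genes. Among all genes 8.44% were called positive with the fibroblast score and 3.41% negative with the pluripotency score.

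Cell cycle genes had low rho values with the fibroblast score. Of 20 S-phase and 22 G2/M genes, 0 were called with it in either direction. Among all genes 8.44% were called positive with it and 1.46% negative. The S-phase mean had a rho of -0.06 with the fibroblast and 0.23 with the pluripotency score, and the G2/M mean -0.07 and 0.17. Given the number of detected genes, the S-phase mean had -0.15 and the G2/M mean -0.22 with the fibroblast score. TOP2A, a DNA topoisomerase of dividing cells, had a rho of 0.12 with KRT8.

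Markers of other cell types were looked for in the same cells. PTPRC and AIF1 of blood cells, GATA3 and CDX2 of trophoblast, and TP63 and IVL of stratified epithelium were listed at 0 in all 91 cells, and KDR and CDH5 of endothelium were below 1. Of the blood list, CD68, a lysosomal protein of macrophages, was detected in 22 cells against 45.7% of BJ cells. CD68 had a rho of 0.47 with the fibroblast, -0.34 with the epithelial and -0.32 with the pluripotency score. The mean of the 2 blood genes with a day 8 mean of 1 or more had 0.51 with the fibroblast score and -0.49 with the mean of the 8 day 8 genes, and its part in the results was not tested. The 9 mesendoderm genes summed to at most 1.92 in any day 8 cell. Single genes of these lists were present: KRT17 in 27 cells, KRT6A in 19, HAND1, a factor of trophoblast and mesoderm, in 47 against 4.35% of BJ cells, and TEK, an angiopoietin receptor, in 59 against 8.70%. KRT6A and KRT17 shared 9 cells. The stratified-keratin mean had a rho of 0.30 with the epithelial score but of -0.05 with KRT8.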

How the data were processed

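Single cells of BJ fibroblasts at 5 stages were sequenced, 96 libraries a stage. The deposited values are FPKM per gene and cell, made by the authors with STAR and Cuffnorm on hg19, per the submitters' processing notes, and no versions are given there. Whether the tables were normalized together, and the read depth per cell, are not given in the sources used here. In ratios of low values between libraries, the most common value held 1.59% of ratios at the median of 780 pairs, so whole reads were not recovered.

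From these, each cell was rescaled to a total of 1000000, 2 near-identical libraries (r above 0.95) were averaged, and means of log2(value + 1) over gene lists, shares of cells, Spearman's rho and partial rank correlations were computed with Python 3.11.15, numpy 2.4.6, pandas 2.3.3 and scipy 1.17.1. Figures were drawn with matplotlib 3.10.9. The steps were tested on simulated data. Intervals are exact Clopper-Pearson at 95%. As far as the labels say, the cells come from 1 culture a stage, so no test was run and no p-value is given.

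The cells, the 20 gene lists and the alternatives were chosen with earlier results of these data known. Named genes are the 4 markers, the factors, the 6 members of each main list with the highest mean and the 6 with the largest SD, and the 5 genes of highest and lowest rho for each score, for the markers and for FN1. Other genes and pairs named were chosen after their values were seen. Some genes that fall under the rule are not reported here. Promoters come from RefSeq on GRCh38.p14, not from the build of the files. Alternatives were FPKM without rescaling, housekeeping scaling, other pseudocounts, list members, detection thresholds and cell filters. Those on ribosomal protein genes, the near-identical libraries, the 3 cells that stand apart, SOX2, the most fibroblast-like cells and rare pluripotency members were added after seeing the data.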

Additional observations from a re-analysis of the deposited data

How the results depend on the processing

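Of 138 alternatives run over the score correlations, programme counts, called genes and gene pairs, 119 stayed within the limits set for them, 19 moved and 0 changed sign. The epithelial and pluripotency scores had a rho from 0.38 to 0.57 over 15 alternatives. The fibroblast and pluripotency scores ranged from -0.62 to -0.38, the last with scores as numbers of detected members, and the fibroblast and epithelial scores from -0.49 in cells with 4000 or more genes to -0.175 with numbers of members. In cells with SOX2 at 1 or more, fibroblast and epithelial scores had -0.24 and epithelial and pluripotency scores 0.38. Without the cells inside the TRA-1-60 negative range of the fibroblast score, the pairs had -0.19 (fibroblast, epithelial), -0.44 (fibroblast, pluripotency) and 0.41 (epithelial, pluripotency). With detection at 5 or more, 8 cells held the epithelial programme, 45 the pluripotency programme and 4 all 3, and with the members rare in BJ cells 39 held the pluripotency programme. Scaled on the housekeeping list, 204 genes were called negative with the fibroblast score and 283 positive with the pluripotency score. Given the number of genes, 484 were called positive with the fibroblast and 164 negative with the epithelial score. In cells with 4000 or more genes, 200 were called negative with the fibroblast and 209 negative with the epithelial score. For FN1 and SPINT2, cells with both minus the product of shares went from -1.81 to -6.93 with detection at 5 or more. The cause of these moves was not tested. Read depth is unknown, so a gene listed at 0 may be missed, and 1 culture leaves the spread between cultures unknown. No paired analysis was possible because the numbers that the groups share name single cells, which nothing in the labels pairs, and no test was run.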
